A study of Mus musculus with 8 samples.

Results

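Slc25a25, Dio2 and 8 related genes of energy expenditure were followed in the esophagus of mice with and without monoacylglycerol lipase (MGL), the enzyme that degrades the endocannabinoid 2-arachidonoylglycerol. The set holds 10 of the 32849 gene symbols in the count table, and each member was read from the row with its symbol. It consists of the ATP-Mg carriers Slc25a25, Slc25a23 and Slc25a24, the thyroid hormone deiodinase Dio2, the uncoupling proteins Ucp2 and Ucp3, and the regulators Ppargc1a, Ppargc1b, Esrra and Esrrg. All 10 members were counted in every library, and all 10 passed the filter on low counts. Slc25a25 and Dio2 were chosen by their measured counts, since the study listed them among the genes that differed between these same libraries. Their differences are therefore given as a description, without a test, and the other 8 genes, their relatives and partners, were tested. The whole set was chosen with earlier results of these data known, so these 8 were not chosen blind either.

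RNA was taken from frozen esophagi of healthy mice and selected for poly(A) tails, in 4 libraries from MGL KO mice and 4 libraries from WT littermates. The MGL KO mice carry a global deletion of the Mgll gene, were bred in-house and had no induced disease. The study's methods state for its experiments in general that male and female young adult mice were used, without an age, sex or strain for each sequenced library, and the labels number the replicates without naming the animals, so p-values measure the spread between these libraries. The mouse esophagus holds squamous epithelium and striated muscle, and the sources used here do not say which part of the organ was taken.

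Slc25a25, Slc25a23 and Slc25a24 encode mitochondrial carriers that exchange ATP-Mg for phosphate across the inner membrane under the control of cytosolic calcium, and so set the adenine nucleotide content of the matrix. Dio2 encodes the selenoenzyme that converts thyroxine to the active hormone triiodothyronine inside the cell, and it is induced by cAMP in brown fat. Ucp2 and Ucp3 belong to the same carrier family. Ppargc1a and Ppargc1b encode the PGC-1 coactivators, which drive mitochondrial genes in muscle and brown fat together with the estrogen-related receptors encoded by Esrra and Esrrg.

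The promoter sequences of Slc25a25, Dio2 and Ppargc1a are shown because each holds a motif of the cAMP response element. They are the 250 bases before a start site in RefSeq on GRCm38.p6, written in the direction of the gene, and all 3 lie on the reverse strand. Slc25a25 is shown at chr2:32424067-32424316, Dio2 at chr12:90739039-90739288 and Ppargc1a at chr5:51567726-51567975. Capitals mark the full element TGACGTCA in Slc25a25 and Dio2 and its shorter part CGTCA in Ppargc1a.
Slc25a25: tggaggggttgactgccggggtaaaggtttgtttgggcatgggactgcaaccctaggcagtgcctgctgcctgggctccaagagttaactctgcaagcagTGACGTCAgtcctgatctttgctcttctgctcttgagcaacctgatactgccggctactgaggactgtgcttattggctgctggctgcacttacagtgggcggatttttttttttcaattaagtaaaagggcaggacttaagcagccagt
Dio2: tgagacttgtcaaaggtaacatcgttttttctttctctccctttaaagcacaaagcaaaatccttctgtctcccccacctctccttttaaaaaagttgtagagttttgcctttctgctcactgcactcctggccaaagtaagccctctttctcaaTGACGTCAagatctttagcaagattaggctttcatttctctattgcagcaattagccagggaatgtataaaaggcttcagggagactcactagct
Ppargc1a: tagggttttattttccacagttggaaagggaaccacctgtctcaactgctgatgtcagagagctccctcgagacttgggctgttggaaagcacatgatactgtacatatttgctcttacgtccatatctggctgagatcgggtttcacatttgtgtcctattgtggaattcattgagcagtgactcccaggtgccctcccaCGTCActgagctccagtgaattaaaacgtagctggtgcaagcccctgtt
The full element TGACGTCA, which reads the same on both strands, began 150 bases before the start site in Slc25a25 and 95 bases before it in Dio2. Slc25a25 has 3 annotated start windows, and the element was in 1 of them. None of the other 13 windows of these members held it, among 15 windows of 9 members. Ppargc1b was not read. Over all 32851 RefSeq windows of this length, 1.546% held the element. The shorter part, TGACG or CGTCA, was in 17.765% of all windows, and beyond Slc25a25 and Dio2 it was found in Ppargc1a, 49 bases before the start, and in Ucp2, 62 bases before it. It overlaps the full element wherever that is present. Neither the estrogen-related receptor motif TCAAGGTCA, present in 0.387% of all windows, nor the E-box CACGTG, present in 6.021%, was found in a window of these members on either strand. A match is a run of letters and not a binding site, and counts per gene do not show which start site was in use.

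The libraries held between 13479069 and 17090152 counts, so that 3 counts correspond to between 0.167 and 0.271 normalized CPM (counts scaled to 1 common library size, with TMM factors). A gene without a count may lie anywhere below that level, a limit that covers counting error only. Mgll, the targeted gene, was read at 12.6, 16.0, 13.1 and 13.2 normalized CPM in MGL KO replicates 1 to 4 and at 83.3, 66.6, 88.3 and 86.7 in WT replicates 1 to 4. All MGL KO libraries thus lay below all WT libraries, with a log2 fold change of -2.57 (SE 0.13, edgeR quasi-likelihood test, adjusted p = 0.000133). Markers of striated muscle and of squamous epithelium were abundant in every library, and their balance varied within both groups. The summed level of 14 skeletal muscle genes lay between 56528 and 129197 normalized CPM in MGL KO and between 71898 and 110749 in WT, highest in MGL KO replicate 2 and WT replicate 3. MGL KO replicate 4 stood apart from the other 7 libraries, with Foxj1, the master regulator of motile cilia, at 227.7 normalized CPM against at most 1.65 elsewhere. It was also the library with the most Ucp1, the uncoupling protein of brown fat, at 43.6 normalized CPM. Where leaving it out moved a printed log2 fold change by over 1.5 times or turned its sign, the value without it is given.

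Both genes of the set that came from the study's list were higher in every MGL KO library than in any WT library. Of the 8 others, Ucp2 and Esrrg also lay above WT in every library, and none lay below (Ppargc1a did by library size alone), where 2.72% of all 14864 tested genes lay above WT in this way and 3.3% below. None of the 8 reached an adjusted p under 0.05 in the quasi-likelihood test, which called 0.0471% of all tested genes (0.0202% higher and 0.0269% lower in MGL KO). At an unadjusted p under 0.05, 3 of the 8 passed (Ucp2, Esrrg and Ppargc1a), against 8.65% of all genes. With DESeq2, 1 of the 8 was called (Ucp2, against 0.935% of all genes tested), and with edgeR's exact test 0 of the 8 were called, against 0.437% of the filtered genes and 0.185% of all counted genes. The median log2 fold change of the 8 was 0.06, and that of all tested genes was 0.02. In these bulk samples, fewer cells of a type and less RNA per cell cannot be told apart.

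**Figure D1:**
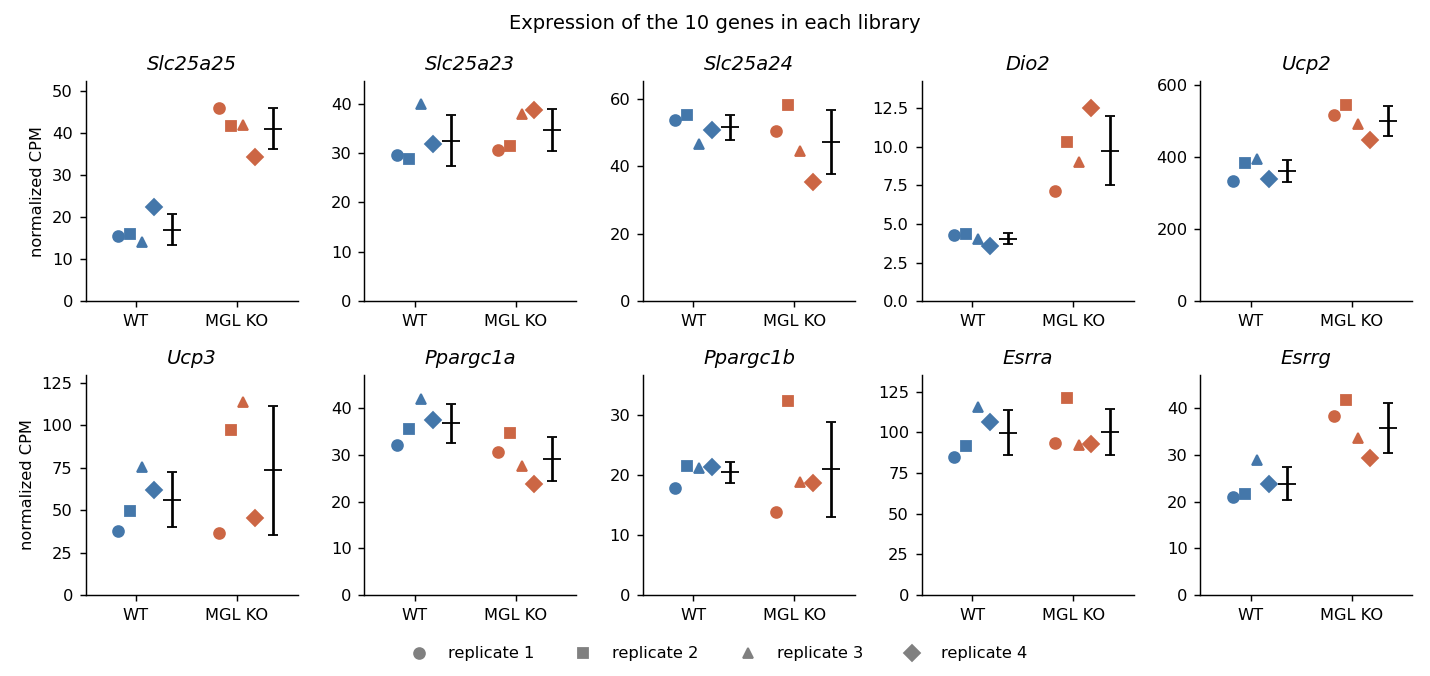
Normalized CPM (y axis, from 0, a scale of its own for each gene) of the 10 genes in 4 WT and 4 MGL KO libraries, with 1 marker shape for each replicate number and the mean with its SD as a black bar. Slc25a25, Dio2, Ucp2 and Esrrg did not overlap between the groups, with all MGL KO libraries above all WT libraries, while the other 6 genes overlapped under this scaling.

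Among the ATP-Mg carriers, Slc25a25 was higher in MGL KO, as the choice of this gene implies, and both relatives overlapped between the groups. Slc25a25 (SCaMC-2), which lies on chromosome 2 of GRCm39 from 32303547 to 32341482, was read at 45.9, 41.7, 41.9 and 34.2 normalized CPM in MGL KO replicates 1 to 4. In WT replicates 1 to 4 it was read at 15.5, 15.9, 14.1 and 22.4 normalized CPM. The lowest MGL KO library, replicate 4, was still above the highest WT library, also replicate 4. The means were 40.9 ± 4.90 normalized CPM (SD, n = 4) in MGL KO and 17.0 ± 3.72 (SD, n = 4) in WT, a ratio of 2.41 and a log2 fold change of 1.27 (SE 0.17). Leaving out any 1 library kept the log2 fold change of Slc25a25 between 1.20 and 1.43. Among all tested genes, 2.54% had a log2 fold change at least this large in size. Its exons share 404 bases with those of Naif1 on the other strand, 4.44% of its exon length, and Naif1 was read at between 5.79 and 9.37 normalized CPM.

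Slc25a23 (SCaMC-3), on chromosome 17 from 57350705 to 57366905, was read at 30.7, 31.5, 38.0 and 38.8 normalized CPM in the MGL KO replicates and at 29.6, 28.7, 39.9 and 31.9 in the WT replicates. The groups overlapped over most of their range. Its log2 fold change was 0.10 (SE 0.14, 95% interval from -0.22 to 0.41, adjusted p = 0.843, exact permutation p = 0.486), and 0.04 without MGL KO replicate 4. Slc25a24 (SCaMC-1), on chromosome 3 from 109030317 to 109075773, was read at 50.6, 58.2, 44.6 and 35.5 normalized CPM in MGL KO and at 53.7, 55.2, 46.7 and 50.7 in WT. The groups overlapped here too. Its log2 fold change was -0.13 (SE 0.15, 95% interval from -0.46 to 0.20, adjusted p = 0.802, exact permutation p = 0.457), and -0.01 without MGL KO replicate 4.

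Counts rise with transcript length, so the carriers were set against each other per base of exon. Slc25a25 took 20.7%, 17.5%, 19.6% and 18.6% of the summed level per exon length of the 3 carriers in MGL KO replicates 1 to 4, and 7.84%, 7.96%, 7.27% and 11.2% in WT replicates 1 to 4. The shares did not overlap between the groups. The share of Slc25a24 was 55.7% ± 5.72 (SD, n = 4) in MGL KO and 66.3% ± 4.16 (SD, n = 4) in WT, with overlap between 61.4% and 62.3%. By the longest transcript, the Slc25a24 shares were at most 47.3% in MGL KO and at least 47.7% in WT. The shares of the 3 carriers sum to a fixed total that includes Slc25a25, which was chosen for being higher, so a lower share of Slc25a24 is no separate result. Slc25a23 took 25.1% ± 5.62 in MGL KO and 25.1% ± 4.31 in WT (SD, n = 4). When the longest transcript stood in for all exons, the share of Slc25a25 became 28.5% ± 1.96 against 13.8% ± 2.75 (SD, n = 4), so the size of the share depends on the isoform assumed while the groups stayed apart. The summed level of the 3 carriers was 122.9 ± 10 normalized CPM in MGL KO and 101.0 ± 2.77 in WT (SD, n = 4). Slc25a41, a shorter relative without the calcium-binding domain, had a count of 0 in all 8 libraries.

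**Figure D2:**
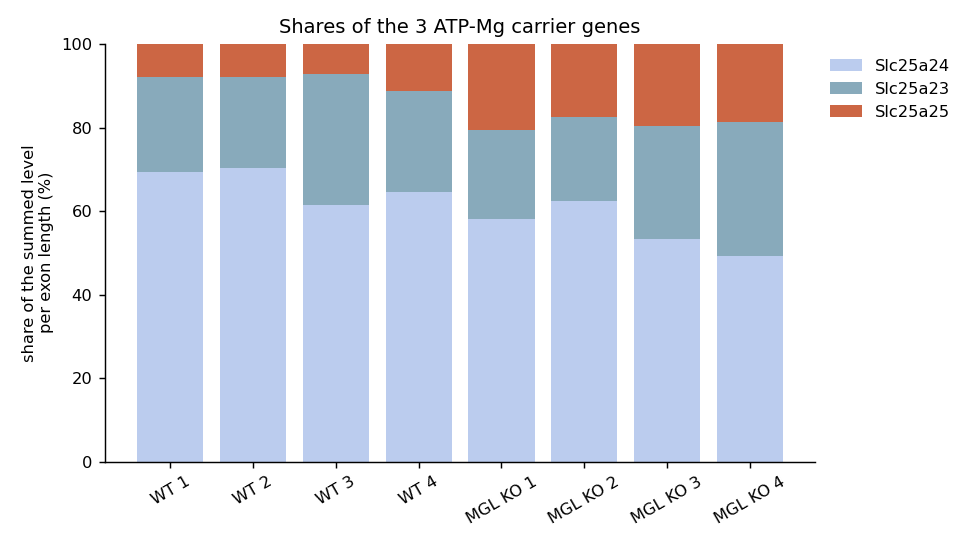
Stacked bars of the share (%, y axis from 0) that Slc25a24, Slc25a23 and Slc25a25 took of their summed level per exon length in each of the 8 libraries. Slc25a25 took between 7.27% and 11.2% in the WT libraries and between 17.5% and 20.7% in the MGL KO libraries.

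The table holds 47 symbols that start with Slc25, the name of most genes of this carrier family, and 43 of them were tested. Of the 40 that are not members of the set, 0 were called by the quasi-likelihood test and 5 had an unadjusted p under 0.05 (8.65% of all tested genes did). Their signs were split, with 21 positive and 19 negative log2 fold changes and a median of 0.01. In 3 of them every MGL KO library was above every WT library, and in 3 every MGL KO library was below (2.72% and 3.3% of all tested genes). The first 3 were Slc25a34, an orphan carrier, Slc25a51, the mitochondrial NAD+ carrier, and Slc25a32, a folate and flavin carrier. Slc25a34 was read at 42.7, 56.8, 57.3 and 34.3 normalized CPM in MGL KO and at 27.3, 26.9, 28.1 and 26.5 in WT, with a log2 fold change of 0.81 (SE 0.16, adjusted p = 0.268 by the quasi-likelihood test). Slc25a34 was the 1 gene of the 40 called by DESeq2 (against 0.935% of all genes) and by the exact test (against 0.437% of the filtered and 0.185% of all counted genes). The other 3 were Slc25a27 (UCP4), with a log2 fold change of -0.73, Slc25a40, a carrier of glutathione, with -0.51, and Slc25a37 (mitoferrin-1), the iron carrier, with -0.49. Slc25a12 and Slc25a13, the aspartate-glutamate carriers that also bind calcium through EF-hands, had log2 fold changes of -0.13 (adjusted p = 0.826) and 0.10 (adjusted p = 0.921), and of -0.02 and -0.09 without MGL KO replicate 4.

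Dio2 was a low-count gene in both groups, within the lowest 27.1% of tested genes by mean level, and every MGL KO library was above every WT library. Dio2, on chromosome 12 of GRCm39 from 90691322 to 90705819, was read at 7.16, 10.3, 9.0 and 12.5 normalized CPM in MGL KO replicates 1 to 4. In WT replicates 1 to 4 it was read at 4.30, 4.34, 4.01 and 3.59 normalized CPM. The WT values lay within a narrow range, while the MGL KO values spread from replicate 1, the lowest, to replicate 4, the highest. The means were 9.75 ± 2.26 normalized CPM in MGL KO and 4.06 ± 0.346 in WT (SD, n = 4), a ratio of 2.40 and a log2 fold change of 1.26 (SE 0.21). These values rest on 114 to 223 counts per MGL KO library and 55 to 77 counts per WT library. Without MGL KO replicate 4 the log2 fold change of Dio2 was 1.12, and without MGL KO replicate 1 it was 1.39.

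Because Dio2 is a known gene of brown adipocytes, the markers of that cell type are given beside it. Ucp1, which defines the brown adipocyte, was read at 0, 1.26, 0.185 and 43.6 normalized CPM in MGL KO replicates 1 to 4 and at 2.45, 0, 0.526 and 0.196 in WT replicates 1 to 4. Cidea, a lipid droplet gene of brown fat, ran from 2.63 to 4.73 in 7 libraries and was read at 66.0 in MGL KO replicate 4. Elovl3, another brown fat gene, was at or below 0.789 normalized CPM in all 8. MGL KO replicate 4 thus held the most Dio2, Ucp1 and Cidea. The remaining MGL KO libraries, with Ucp1 at 1.26 normalized CPM or less, read Dio2 at between 7.16 and 10.3, where the WT maximum was 4.34. The summed level of the 6 brown adipocyte genes lay between 68.2 and 189.7 normalized CPM in MGL KO (at most 162.2 without replicate 4) and between 62.1 and 108.2 in WT. Most of this sum in the libraries other than MGL KO replicate 4 was Cox8b, which striated muscle also expresses. The part of brown adipocytes in the Dio2 level was not tested in any library.

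**Figure D3:**
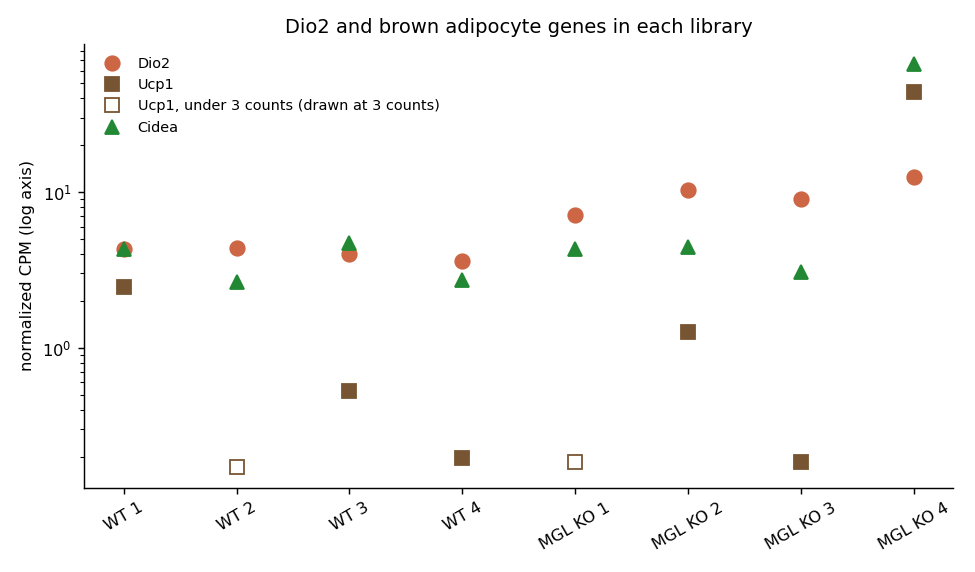
Normalized CPM on a log axis of Dio2 (circles), Ucp1 (squares) and Cidea (triangles) in each library, with open symbols where a library held under 3 counts of the gene, drawn at the level of 3 counts. Ucp1 and Cidea were high in MGL KO replicate 4 only, at 43.6 and 66.0, while Dio2 was above 7 in all 4 MGL KO libraries and below 5 in all 4 WT libraries.

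The other deiodinases were low in most libraries. Dio1, which also activates thyroxine, was read at 6.97 normalized CPM in MGL KO replicate 4 and at no more than 0.0612 in any other library. Dio3, which inactivates the hormone, stayed at or below 0.987 in all 8. Nkx2-1, a transcription factor of thyroid and lung, was at 29.3 normalized CPM in MGL KO replicate 4, at 1.29 in MGL KO replicate 1 and at 0 in the other 6 libraries. Tg, thyroglobulin, which defines thyroid follicular cells, was at or below 1.79 in every library and at 0.562 in MGL KO replicate 4.

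The thyroid hormone list holds 26 genes, namely Dio1 and Dio3, transporters, receptors with their partners and target genes, and genes of selenoprotein synthesis and of Dio2 protein turnover. Of these, 22 were tested. None was called by the quasi-likelihood test, DESeq2 or the exact test, and 1 had an unadjusted p under 0.05 (8.65% of all genes did). In the quasi-likelihood fit 16 were positive and 6 negative, with a median log2 fold change of 0.08, where 53.0% of all genes were positive. Klf9, a transcription factor induced by thyroid hormone, had the largest positive value, with 292.1 ± 84.0 normalized CPM in MGL KO and 225.6 ± 44.7 in WT (SD, n = 4, log2 fold change 0.37, adjusted p = 0.659). Slc16a10, a transporter of aromatic amino acids and thyroid hormone, followed with 0.24 (adjusted p = 0.649). At the other end were Sepsecs, an enzyme of selenocysteine synthesis, with -0.31 (adjusted p = 0.653), and Usp33, a deubiquitinase that stabilizes the Dio2 protein, with -0.21 (adjusted p = 0.799), and -0.33 without MGL KO replicate 4. Rxra and Rxrb, partners of the thyroid hormone receptor, were above WT in every MGL KO library, as 2.72% of all genes were, with log2 fold changes of 0.23 (adjusted p = 0.602) and 0.19 (adjusted p = 0.550). These 2 were singled out after their values were seen.

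Ucp2 was the most abundant member, and the groups did not overlap. Ucp2, on chromosome 7 of GRCm39 from 100142055 to 100151227, was read at 515.9, 543.8, 490.9 and 446.5 normalized CPM in MGL KO replicates 1 to 4. In WT replicates 1 to 4 it was read at 332.0, 381.8, 394.0 and 340.0 normalized CPM. The means were 499.3 ± 41.3 and 362.0 ± 30.5 (SD, n = 4), a ratio of 1.38. The log2 fold change was 0.46 (SE 0.12, 95% interval from 0.20 to 0.73), and it lay between 0.42 and 0.51 when any 1 library was left out. The adjusted p was 0.433 with the quasi-likelihood test and 0.00526 with DESeq2, from 0.00526 to 0.923 over all 17 alternatives. The exact permutation test over the 8 libraries gave p = 0.0286, two-sided, which is the smallest it can give for 4 against 4.

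Macrophages are known for high Ucp2, so their markers are given beside it, and their part in the Ucp2 level was not tested. The summed level of 6 macrophage genes lay between 132.0 and 166.4 normalized CPM in MGL KO and was 479.1, 187.9, 157.1 and 277.3 in WT replicates 1 to 4. All 6 had negative log2 fold changes, from -1.51 to -0.64. All 6 also had an unadjusted p under 0.05 in the quasi-likelihood test, against 8.65% of all tested genes. None of them was called by the quasi-likelihood test, DESeq2 or the exact test. Without WT replicate 1 the range was -0.68 to -0.37, and 3 of the 6 had an unadjusted p under 0.05. The share of all genes in that fit is not given here. The exons of Ucp2 share 1095 bases, 14.91% of its exon length, with Dnajb13 on the other strand. Dnajb13 was read at 1.99 to 13.6 normalized CPM. The use of strand in counting is not known, and the part of the shared bases in the Ucp2 counts was not tested.

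Ucp3, the neighbor of Ucp2 on chromosome 7 (100122136 to 100135976) and the uncoupling protein of skeletal muscle, varied more between the libraries of a group than any other member. It was read at 36.7, 97.5, 114.0 and 45.7 normalized CPM in MGL KO and at 37.9, 49.5, 75.7 and 62.1 in WT. The MGL KO libraries held both the lowest and the highest values of Ucp3. Its log2 fold change was 0.38 (SE 0.37, 95% interval from -0.46 to 1.23, adjusted p = 0.772, exact permutation p = 0.600), and it fell to 0.09 without MGL KO replicate 3. The ratio of Ucp2 to Ucp3 in counts was 14.1, 5.57, 4.31 and 9.77 in MGL KO and 8.75, 7.71, 5.21 and 5.48 in WT, so these adjacent genes did not keep a fixed proportion in either group. Pdk4, the kinase that shuts off pyruvate dehydrogenase in fasting, was also higher in MGL KO replicates 2 and 3, at 856.9 and 789.5 normalized CPM, than in replicates 1 and 4, at 278.0 and 427.5.

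Of 20 tested genes of uncoupling and thermogenesis outside the set, 0 were called by any of the 3 tools and 1 had an unadjusted p under 0.05 (8.65% of all genes did). They were mixed in sign, 13 positive and 7 negative, with a median log2 fold change of 0.07, where 53.0% of all genes were positive. Without MGL KO replicate 4 they were 10 positive and 10 negative, with a median of 0.02, where 49.2% of all genes were positive. Kcnk3, a potassium channel of brown fat, had 0.88 (adjusted p = 0.666), with 47.8 normalized CPM in MGL KO replicate 4 and at most 15.4 in the other libraries, and -0.02 without that replicate. Slc25a14 (UCP5) had 0.50 (adjusted p = 0.633) and 0.28 without it. At the other end Slc25a27 (UCP4) had -0.73 (adjusted p = 0.503) and Ckmt2, the mitochondrial creatine kinase of muscle, had -0.28 (adjusted p = 0.863), and -0.10 without MGL KO replicate 4. Slc25a27 was read at 7.22 to 15.5 normalized CPM in MGL KO and at 17.1 to 26.4 in WT, without overlap, and was the only 1 of the 20 without overlap (5% of the list, against 6.02% of all genes).

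Among the regulators, Esrrg lay higher in all MGL KO libraries, Ppargc1a had a lower mean in MGL KO with overlap, and Ppargc1b and Esrra had means that differed by less than the SD of either gene in MGL KO. Esrrg, on chromosome 1 of GRCm39 from 187340988 to 187947082, encodes estrogen-related receptor gamma, a driver of oxidative metabolism in muscle. It was read at 38.3, 41.8, 33.7 and 29.4 normalized CPM in MGL KO replicates 1 to 4 and at 21.1, 21.6, 28.9 and 23.8 in WT replicates 1 to 4. The lowest MGL KO library, replicate 4, and the highest WT library, replicate 3, were close together at the edge of both groups. The means were 35.8 ± 5.41 and 23.8 ± 3.56 (SD, n = 4), a ratio of 1.5. The log2 fold change was 0.59 (SE 0.15, 95% interval from 0.25 to 0.92, adjusted p = 0.433). The exact permutation p of 0.0286 is again the smallest possible, and leaving out any 1 library gave log2 fold changes between 0.51 and 0.70.

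Ppargc1a, on chromosome 5 from 51611592 to 51725068, was read at 30.6, 34.7, 27.6 and 23.7 normalized CPM in MGL KO and at 32.0, 35.6, 41.9 and 37.4 in WT. MGL KO replicate 2 reached into the WT range. By library size alone, without TMM factors, Ppargc1a ran from 26.3 to 30.5 in MGL KO and from 34.7 to 39.5 in WT, so that under that scaling the groups did not overlap. Its log2 fold change was -0.34 (SE 0.14, 95% interval from -0.65 to -0.02, adjusted p = 0.559, exact permutation p = 0.0571), between -0.43 and -0.25 when any 1 library was left out. Ppargc1b, on chromosome 18 from 61431195 to 61533735, was read at 13.9, 32.4, 18.8 and 18.7 normalized CPM in MGL KO and at 17.9, 21.5, 21.1 and 21.4 in WT. MGL KO replicates 1 and 2 held its lowest and highest values. The log2 fold change was 0.03 (SE 0.24, 95% interval from -0.51 to 0.56, adjusted p = 0.976) and 0.08 without MGL KO replicate 4, with a sign that turned to -0.05 under scaling by library size alone.

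Esrra, on chromosome 19 from 6888338 to 6899336, was read at 93.7, 121.2, 92.4 and 93.1 normalized CPM in MGL KO and at 85.0, 91.8, 115.7 and 106.1 in WT. The group means were 100.1 ± 14.1 and 99.6 ± 13.8 (SD, n = 4). MGL KO replicate 2 stood above 3 nearly equal values, but by library size alone the MGL KO replicates were at 93.4, 99.7, 94.5 and 103.6. The log2 fold change was 0.01 (SE 0.14, 95% interval from -0.30 to 0.31, adjusted p = 0.990), 0.04 without MGL KO replicate 4 and -0.05 under scaling by library size alone. The exons of Esrra share 1479 bases, 29.64% of its exon length, with Trmt112 on the other strand, which was read at 19.0 to 31.3 normalized CPM. The use of strand in counting is not given in the sources used here, so the counts of Esrra carry that uncertainty.

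**Figure D4:**
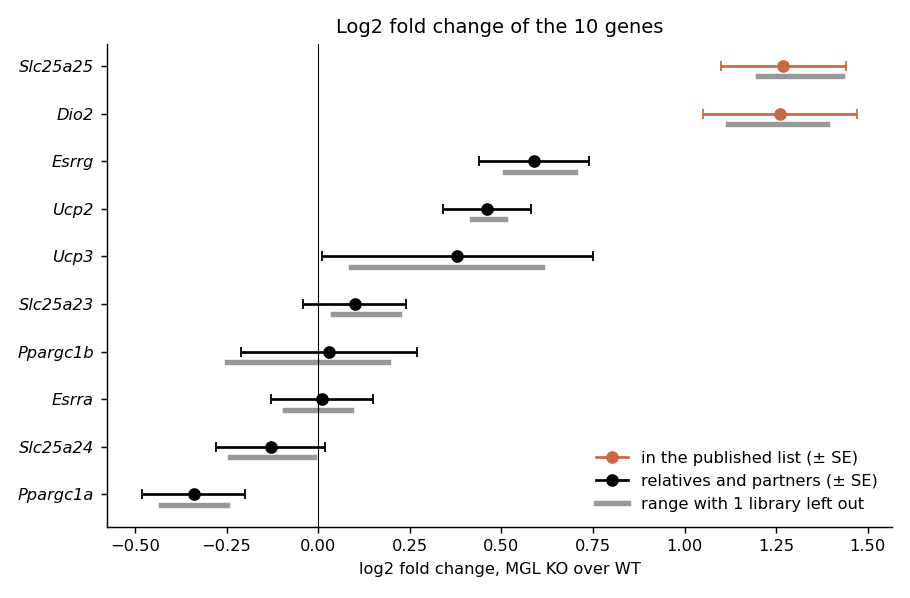
Log2 fold change of each of the 10 genes, MGL KO over WT (x axis), with its SE as a bar and, under it in gray, the range when each library was left out in turn. Slc25a25 and Dio2, in color, lay at 1.27 and 1.26, Esrrg and Ucp2 followed at 0.59 and 0.46, and Ppargc1a was lowest at -0.34.

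Esrrg and Ppargc1a kept a near constant proportion to each other within each group. The ratio of Esrrg to Ppargc1a was 1.25, 1.21, 1.22 and 1.24 in MGL KO replicates 1 to 4 and 0.659, 0.606, 0.688 and 0.636 in WT replicates 1 to 4. A ratio taken within a library does not depend on how libraries are scaled. The SD of its log2 within groups was 0.058, the smallest among the 45 pairs of members, whose median was 0.324. This pair was singled out after its values were seen, and its difference was not tested. Esrrg rests on 365 to 626 counts per library and Ppargc1a on 384 to 638. The part of counting error in this SD was not tested. Ratios without overlap between the groups were common, in 21 of the 45 pairs and in 8 of the 28 without Slc25a25 or Dio2. The ratio of Esrrg to Esrra, both receptors of the same family, ran from 0.316 to 0.409 in MGL KO and from 0.224 to 0.249 in WT.

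**Figure D5:**
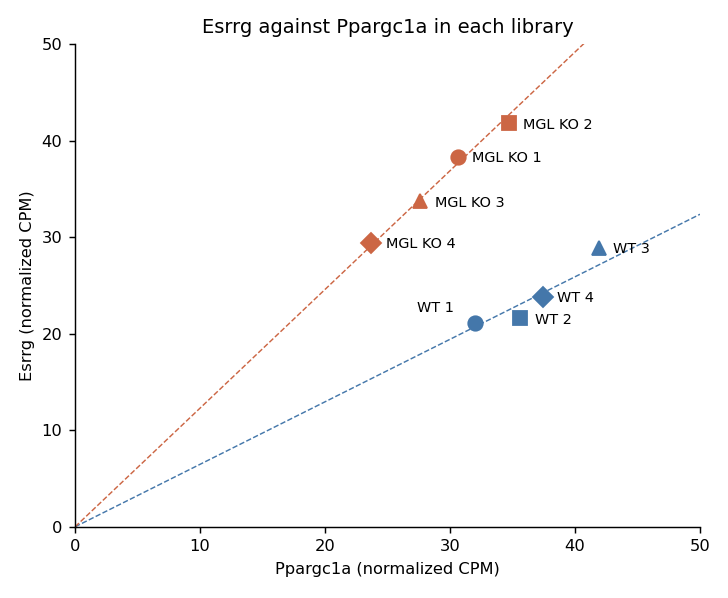
Esrrg against Ppargc1a, both in normalized CPM, in each of the 8 libraries, with a dashed line through the origin at the geometric mean ratio of each group. The MGL KO libraries lay along a steeper line (ratios from 1.21 to 1.25) than the WT libraries (0.606 to 0.688).

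Which library was highest in its group depended on the scaling. With TMM factors, MGL KO replicate 2 and WT replicate 3, with the highest skeletal muscle sums of their groups, each held the highest value of their group for 6 of the 10 members, Ucp2, Ppargc1a, Esrra and Esrrg in both cases. Their TMM factors, 0.823 and 0.942, were the lowest of their groups, and by library size alone MGL KO replicate 2 was highest for 1 member and WT replicate 3 for 5, while MGL KO replicate 1 was highest for 5. Slc25a25, Dio2, Ucp2 and Esrrg were above WT in every MGL KO library under both scalings. The muscle sums themselves overlapped between MGL KO and WT. With the muscle score as a covariate, the log2 fold change was 0.62 for Esrrg (adjusted p = 0.0532), 0.48 for Ucp2 (adjusted p = 0.068) and -0.31 for Ppargc1a (adjusted p = 0.175). The adjusted p of Esrrg ran from 0.0532 to 0.923 over the 17 alternatives and that of Ppargc1a from 0.175 to 0.923.

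Of 31 tested partners and targets of the PGC-1 coactivators, 0 were called by any of the 3 tools and 3 had an unadjusted p under 0.05, all 3 higher in MGL KO. These 3 are 9.68% of the list, against 8.65% of all tested genes. Positive log2 fold changes were found for 24 and negative for 7, with a median of 0.09, where 53.0% of all tested genes were positive. None of the 31 separated the groups without overlap, which 6.02% of all genes did. Fndc5, the precursor of irisin, had the largest value, 2.25 (adjusted p = 0.509), and ran from 1.48 to 7.04 normalized CPM in 7 libraries, with 28.8 in MGL KO replicate 4, without which its log2 fold change was 0.92. Pdk4 came next with 588.0 ± 279.7 normalized CPM in MGL KO against 261.3 ± 70.5 in WT (SD, n = 4, log2 fold change 1.17, adjusted p = 0.485). Cpt1b, the muscle enzyme of fatty acid entry into mitochondria, had -0.47 (adjusted p = 0.686) and Vegfa, the angiogenic factor, had -0.24 (adjusted p = 0.690).

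Genes of energy sensing and cAMP signaling, which act upstream of Dio2 and Ppargc1a, held the largest share of low p-values among these lists. Of 30 tested, 6 had an unadjusted p under 0.05 (20%, against 8.65% of all tested genes) and 0 were called by any of the 3 tools. In 5 of the 30 (16.7%, against 6.02% of all genes) the groups did not overlap. Foxo1, a transcription factor of fasting, had a log2 fold change of 0.41 (adjusted p = 0.503), Rcan1, a calcineurin inhibitor, 0.37 (adjusted p = 0.550), and Prkaa1, the catalytic alpha-1 subunit of AMP-activated kinase, 0.20 (adjusted p = 0.578). Prkab2, a regulatory subunit of the same kinase, lay below WT in every MGL KO library with -0.30 (adjusted p = 0.509). Foxo1, Rcan1 and Prkaa1 were singled out after their values were seen. The largest log2 fold changes of this list were those of Adrb1, the beta-1 adrenergic receptor, with 1.74 (adjusted p = 0.628), and Prkar2b, a subunit of protein kinase A, with 1.11 (adjusted p = 0.683), and both were highest in MGL KO replicate 4. Without it the values were -0.05 for Adrb1 and -0.16 for Prkar2b. Prkag3, the muscle gamma subunit of AMP-activated kinase, had the lowest, -0.42 (adjusted p = 0.523).

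Calcium controls the ATP-Mg carriers, and 13 genes of mitochondrial calcium handling were tested. None was called by any of the 3 tools, and 1 had an unadjusted p under 0.05 (8.65% of all genes did). Positive log2 fold changes were found for 11 and negative for 2, with a median of 0.11 (0.22 without MGL KO replicate 4), where 53.0% of all genes were positive. The gene with the low p, Slc8b1, the mitochondrial sodium-calcium exchanger, was read at 30.9 to 39.0 normalized CPM in MGL KO and at 39.9 to 46.8 in WT (log2 fold change -0.34, adjusted p = 0.499). The other 3 with the most extreme values were Efhd1 with 0.30 (adjusted p = 0.796), Micu3 with 0.26 (adjusted p = 0.681) and Micu2 with -0.01 (adjusted p = 0.993, and 0.08 without MGL KO replicate 4), all EF-hand proteins of mitochondria. Over all these lists together, 118 genes outside the set were tested, 12 had an unadjusted p under 0.05 (10.2%, 8 higher and 4 lower in MGL KO, against 8.65% of all genes), and the groups did not overlap for 9 (7.63%, against 6.02% of all genes). Without MGL KO replicate 4, an unadjusted p under 0.05 was found for 1 of 31 PGC-1 partners and targets, 3 of 22 thyroid hormone genes and 8 of 30 genes of energy sensing and cAMP signaling, against 9.36% of all genes, and 0 were called. With that library left out, 11 of the 118 lay above and 5 below WT in every library, where fewer libraries leave 10.8% of all genes without overlap.

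Levels per exon length put the members in the following order in WT. It ran from Ucp2 at 49.3 ± 4.16 normalized CPM per kb (SD, n = 4) through Esrra at 20 ± 2.78, Slc25a24 at 14.4 ± 1.05, Ucp3 at 11.3 ± 3.26, Slc25a23 at 5.44 ± 0.854 and Ppargc1a at 5.2 ± 0.584 to Esrrg at 3.84 ± 0.573, Ppargc1b at 3.54 ± 0.298, Slc25a25 at 1.86 ± 0.409 and Dio2 at 0.631 ± 0.0539. Neighbors in this order kept it in all 4 WT libraries, except Slc25a24 and Ucp3, Slc25a23 and Ppargc1a, and Esrrg and Ppargc1b, each of which kept it in 3 of 4. The ranges of Ppargc1a and Esrrg overlapped, but Ppargc1a was the higher in each WT library. In MGL KO, Slc25a25 stood at 4.49 ± 0.538 per kb, above Ppargc1a at 4.13 ± 0.658 and Ppargc1b at 3.63 ± 1.38, although its range overlapped both. Dio2 stayed the lowest at 1.52 ± 0.351 per kb. With the longest transcript in place of all exons, the WT level of Slc25a25 became 3.79 per kb and that of Esrra 38.6, so levels compared between genes depend on the isoform.

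The genes most like Slc25a25 across the 8 libraries, by the SD of the log2 ratio of their levels, were Efcab11 (SD 0.244), Npr3, the clearance receptor of natriuretic peptides (0.262), Tob2, an antiproliferative factor (0.262), Kbtbd8 (0.269) and Ccn1, a secreted matrix protein (0.275), where the median over all genes was 0.784. Those most like Dio2 were Thbs1, thrombospondin 1 (0.244), Pmepa1, an inhibitor of TGF-beta signaling (0.272), Dusp18 (0.275), Pnma1 (0.278) and the clock gene Cry1 (0.281), against a median of 0.755. All 10 were higher on average in MGL KO, as any gene close to Slc25a25 or Dio2 by this measure has to be. Tob2 was read at 212.4 to 240.0 normalized CPM in MGL KO and at 106.6 to 176.2 in WT, with WT replicate 4 highest in its group, as it was for Slc25a25. Thbs1 was read at 33.0 to 55.9 normalized CPM in MGL KO and at 14.7 to 24.2 in WT, highest in MGL KO replicate 4, as Dio2 was. The genes most like Ppargc1a were Zxdc (0.076), Xndc1 (0.080), the lymphangiogenic factor Vegfd (0.081), Ano5, a muscle anoctamin (0.085), and Stard7, a carrier of phosphatidylcholine to mitochondria (0.089), against a median of 0.387. All these genes hold the smallest SDs among 14864 tested genes, and the part of counting error in their order was not tested. Some were low, with Efcab11 at 0.592 to 2.25 normalized CPM and Xndc1 at 4.55 to 7.76.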

How the data were processed

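The authors selected poly(A) RNA, checked read quality with FastQC 0.11.9, trimmed adapters with cutadapt, aligned to GRCm39 with STAR 2.7.10b and deposited whole-number counts per gene symbol for 8 libraries. The annotation, the counting tool and its strand setting are not given in the sources used here. Groups came from the sample labels (4 MGL KO, 4 WT). The members and lists were chosen with earlier results of these data known, and named list genes were up to 2 with the largest and 2 with the smallest log2 fold change per list. Also named were the defining markers, carriers of the Slc25 family without overlap between the groups, and the 5 genes most like Slc25a25, Dio2 and Ppargc1a (prior count 1). Dio1, Dio3 and Slc25a41, as relatives of members, and Rxra, Rxrb, Foxo1, Rcan1 and Prkaa1 were named outside this rule after their values were seen. Some items are not reported here.

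Genes were kept by filterByExpr (edgeR 4.0.16, R 4.3.3) with a minimum count of 10, leaving 14864 of 22721 counted symbols. The genotypes were compared in edgeR by the quasi-likelihood test with TMM factors (0.823 to 1.113), Benjamini-Hochberg adjustment over all tested genes and a threshold of 0.05. Each SE is the log2 fold change over the root of its F statistic. Single genes were also compared by two-sided exact permutation tests (scipy 1.17.1), each with its unadjusted p. Levels per kb used the union of GENCODE M39 exons, promoters RefSeq on GRCm38.p6. Alternatives were the exact test named in the study's methods, with and without the filter, DESeq2 1.42.0, RLE factors, no scaling beyond library size, omission of the filter, a stricter filter (each library at 10 counts or more), a replicate block, a skeletal muscle covariate, and leaving out each library in turn. The tests were tested on simulated data first. No 2 libraries of a group agreed within sampling noise.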

Additional observations from a re-analysis of the deposited data

Results flagged for a closer look

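For the 10 members, Mgll, the other genes named with their values and the summed marker lists, 66 genes or sums in all, the libraries of each genotype were compared with one another, except that of the genes most like a member Tob2 and Thbs1 alone were included. Of these 132 groups of 4 libraries, 21 held a library farther out than Dixon's 95% limit. For independent items named without regard to their values, chance would give about 1 in 20, or 6.6 groups. The items here do not meet these terms. Some were named for extreme values, and the summed lists hold genes that were also compared singly. The number of such groups is therefore a description and not a test. Among the members, these were Ppargc1b in WT replicate 1 (17.9 normalized CPM, with the nearest at 21.1) and Esrra in MGL KO replicate 2 (121.2, with the nearest at 93.7). Both depend on the TMM scaling. By library size alone Ppargc1b was 19.4 in WT replicate 1 with the nearest at 19.9, and Esrra was 99.7 in MGL KO replicate 2, below the 103.6 of replicate 4.

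MGL KO replicate 4 accounted for 10 of the 21. It was high for Foxj1 (227.7, nearest 1.65), Ucp1 (43.6, nearest 1.26), Cidea (66.0, nearest 4.42), Dio1 (6.97, nearest 0.0612), Adrb1 (10, nearest 1.08), Prkar2b (64.9, nearest 13.1), Slc25a13 (9.61, nearest 6.18), Slc25a14 (5.73, nearest 3.45), Nkx2-1 (29.3, nearest 1.29) and the summed thyroid markers (33.2, nearest 6.32), most of which is Nkx2-1. MGL KO replicate 2 was high for Ckmt2 (219.7, nearest 84.3), Rcan1 (85.3, nearest 60.2) and Slc25a32 (32.8, nearest 26.3), and low for Slc25a37 (34.4, nearest 60.1). The remaining ones were Vegfa (294.3, nearest 200.6), Elovl3 (0.789, nearest 0.130) and the summed brown adipocyte markers (108.2, nearest 63.6) in WT replicate 3, and Tg (1.79, nearest 0.228) and the summed thyroid markers (4.80, nearest 0.970) in WT replicate 1.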

How the results depend on the processing

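Slc25a25 (1.20 to 1.43), Dio2 (1.12 to 1.39), Ucp2 (0.41 to 0.51), Esrrg (0.51 to 0.70), Ucp3 (0.09 to 0.61), Slc25a23 (0.04 to 0.22), Slc25a24 (-0.24 to -0.01) and Ppargc1a (-0.43 to -0.25) kept the sign of their log2 fold change under all 17 alternatives. For Slc25a25 and Dio2, chosen because they differed between these same libraries, a kept sign follows from the choice and is no separate result. Ppargc1b turned to -0.05 with library size alone, to -0.03 with the replicate block, and ranged from -0.25 to 0.19 when 1 library was left out, negative without MGL KO replicate 2 (-0.25) or WT replicate 1 (-0.03). Esrra turned to -0.05 with library size alone and to -0.00149 under the stricter filter (each library at 10 counts or more), and ranged from -0.09 to 0.09 when 1 library was left out, negative without MGL KO replicate 2 (-0.09), WT replicate 1 (-0.06) or WT replicate 2 (-0.03).

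The quasi-likelihood test called 7 genes over the whole table, against 65 with the exact test on filtered genes, 42 with the exact test on all counted genes, 137 with DESeq2, 2 without a filter, 32 with the muscle covariate, and 2 to 5 when 1 library was left out. Of the 8 tested members, 0 were called in the main test and in 16 alternatives, and 1 (Ucp2) with DESeq2. The replicate block gave 2 calls. Libraries with the same number did not deviate together over all genes, with correlations of -0.137, -0.280, -0.142 and 0.079. The labels do not say what the numbers stand for, so whether they pair the libraries is not known. The cause of the differences in the number of calls was not tested. The depth limits low genes most, with 55 to 77 counts per WT library behind Dio2.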
